A study of Mus musculus with 14 samples.

Results

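The genes described here are 3 Notch receptors, Notch1, Notch2 and Notch3, and 5 of their ligands, Jag1, Jag2, Dll1, Dll3 and Dll4. They were chosen by symbol and are 8 of the 21312 protein-coding genes listed in exome variant tables of 12 mouse mammary tumours. Their identifiers in the tables are ENSMUSG00000026923 for Notch1, ENSMUSG00000027878 for Notch2, ENSMUSG00000038146 for Notch3, ENSMUSG00000027276 for Jag1, ENSMUSG00000002799 for Jag2, ENSMUSG00000014773 for Dll1, ENSMUSG00000003436 for Dll3 and ENSMUSG00000027314 for Dll4. The fourth receptor, Notch4, lies in the major histocompatibility region and was left out of the set. All tumours grew from p53null Balb/c mammary fragments taken from donors aged 8 to 10 weeks, and were collected at a largest diameter of 2 cm.

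In the gel experiment the fragment was placed in a cleared fat pad of a syngeneic mouse aged 3 to 4 weeks, together with a collagen 1 gel holding 20% basement membrane extract. Stiff gels (tumours A7, A8 and A9) had been crosslinked with 500 mM L-ribose, and soft gels (A1, A2 and A3) had not. In the host experiment the fragment was placed in LysM-Cre GPX4 mice, either knockout (KO, tumours B4, B5 and B6) or wild-type (WT, B1, B2 and B3). LysM-Cre acts in myeloid cells, so the GPX4 loss was in host cells and not in the implanted epithelium. GPX4 is a peroxidase that clears lipid peroxides. The DNA came from whole tumour tissue and can hold host cells.

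Notch receptors are large membrane proteins built mostly of EGF-like repeats. A ligand on a neighbouring cell pulls on the receptor, an ADAM metalloprotease and then gamma-secretase cut it, and the freed intracellular domain enters the nucleus and acts with Rbpj and a Mastermind protein on target genes such as Hes1 and Hey1. Jagged (Jag) and Delta-like (Dll) proteins are the ligands. In the mammary gland, Notch signalling takes part in the choice between luminal and basal cell fate, and truncated, active Notch receptors drive mammary tumours in mice.

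Each value is a number of variants called in a gene in 1 tumour. Protein-altering variants are those that snpEff, a program that predicts variant effects, rated HIGH (stop gained, frameshift, essential splice site) or MODERATE (missense, in-frame). LOW variants are mostly synonymous, and coding variants are the sum of all 3 classes. MODIFIER variants are intronic, flanking or in untranslated regions. The tumours held 8317 to 16544 protein-altering variants each over all protein-coding genes, with the fewest in B5 and the most in B1. Read depth is not listed, so a count of 0 does not tell an unchanged gene from one that was poorly covered. Base changes and positions are not listed either, so the same variant in several tumours cannot be told from different ones, and inherited variants cannot be told from somatic ones. The counts are not scaled to coding length, so they are compared between tumours and not between genes.

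The 8 genes held 53 protein-altering variants in the 12 tumours, 22 of HIGH and 31 of MODERATE impact. Notch3 held 24 of them, in 10 tumours. Dll4 held 8 in 7 tumours, Notch2 held 7 in 5 tumours, and Dll1 held 6 in 4 tumours. Jag2 held 4 in 4 tumours, Dll3 held 3 in 2 tumours, and Jag1 held 1. Notch1 held 0 in all 12 tumours. Over all protein-coding genes, 9.51% had a protein-altering variant in at least 10 of 12 tumours, as Notch3 did, and 44.5% had none in any tumour, as Notch1 did. Each of the 8 genes had a coding variant in at least 1 tumour, while 34.1% of all genes had none.

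**Figure D1:**
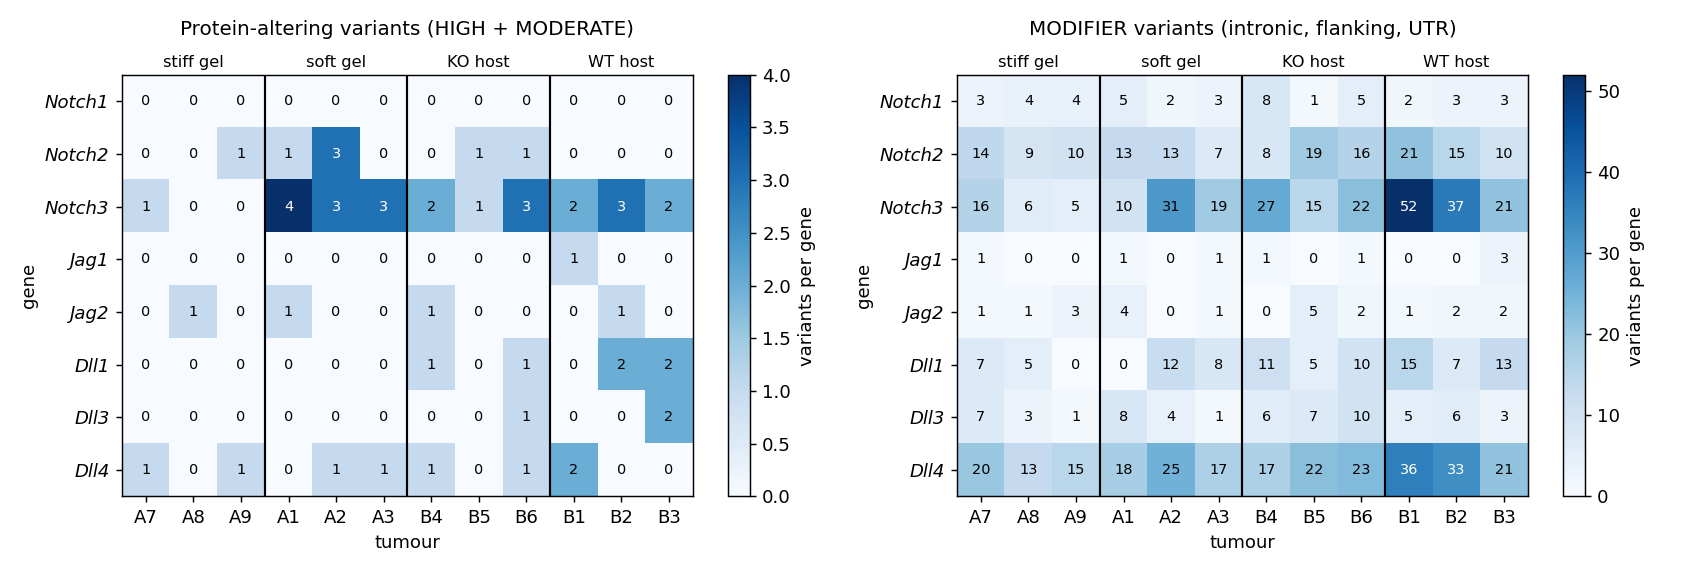
Number of protein-altering variants (left) and MODIFIER variants (right) in each of the 8 genes (rows) and each of the 12 tumours (columns), with 3 tumours in each group. Notch3 had 1, 0 and 0 protein-altering variants in the stiff-gel tumours and 4, 3 and 3 in the soft-gel tumours; Notch1 had 0 throughout.

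The receptors were the first members compared between stiff and soft gels, which addresses tissue stiffness. Notch3, the receptor best known from vascular smooth muscle and pericytes, had 1 protein-altering variant in A7 and 0 in A8 and A9, against 4, 3 and 3 in the soft tumours A1, A2 and A3. Every stiff tumour was below every soft tumour. The mean was 0.333 ± 0.577 in stiff and 3.33 ± 0.577 in soft tumours (SD, n = 3 each), a difference of -3. Among the 4312 genes tested (a sum of 3 or more in the gel tumours), 2.69% likewise had their stiff counts wholly below their soft counts, and 1.18% wholly above. The totals of 1 and 10 variants gave a stiff-to-soft ratio of 0.1. No interval is given for this ratio, because a variant carried by several tumours is counted in each.

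Notch3 did not pass the test over all genes. edgeR's quasi-likelihood test gave it a log2 fold change of -2.92 (unadjusted p = 0.0124, adjusted p = 1). With totals of 1 in stiff and 10 in soft tumours, Notch3 reached the minimum sum of 3 through the soft tumours, where it was higher. The exact permutation p was 0.1, which is the smallest that 3 tumours against 3 can give, and it was 1 after adjustment over all genes. edgeR called 0 of the 3 members it could test, Notch2, Notch3 and Dll4, and 0% of all 4312 genes. At an unadjusted p under 0.05 it listed 1 member, Notch3, as lower and 0 as higher, against 1.72% of all genes lower and 0.742% higher. DESeq2 called 0 members and gave Notch3 an unadjusted p of 0.102.

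The kinds of Notch3 variant were then set side by side. HIGH-impact variants numbered 0 in each stiff tumour, against 4, 1 and 2 in A1, A2 and A3. By HIGH count 1.83% of the genes tested were wholly lower in stiff tumours and 1.1% wholly higher. edgeR gave the HIGH count an unadjusted p of 0.0532 and an adjusted p of 1. Notch3 entered that test through the soft tumours alone, and the HIGH-only count was added after the data were seen. MODERATE variants overlapped, with 1, 0 and 0 in the stiff tumours, against 0, 2 and 1 in the soft tumours, and on these alone the edgeR log2 fold change was -1.30 (unadjusted p = 0.376, adjusted p = 1). The soft tumours carried frameshifts in all 3 cases (2, 1 and 1), a stop gained in A1 and in A3, and a splice acceptor change in A1. The single protein-altering variant of the stiff tumours, in A7, was missense. With LOW variants included, Notch3 had 1, 0 and 1 coding variants in A7, A8 and A9, against 6, 6 and 5 in A1, A2 and A3, again without overlap. By coding count 2.64% of the genes tested were wholly lower in stiff tumours and 1.48% wholly higher. edgeR gave the coding count a log2 fold change of -2.87 (unadjusted p = 0.00286, adjusted p = 0.993).

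MODIFIER variants of Notch3 overlapped between the gel groups. They numbered 16, 6 and 5 in A7, A8 and A9, against 10, 31 and 19 in A1, A2 and A3. A7 thus had more of them than A1. By MODIFIER count 8.12% of the genes tested were wholly lower in stiff tumours and 1.74% wholly higher. Per 100 MODIFIER variants of the gene itself, protein-altering variants numbered 6.25, 0 and 0 in the stiff tumours, against 40, 9.68 and 15.8 in the soft tumours. Per 10000 protein-altering variants of the tumour they numbered 0.97, 0 and 0 in the stiff tumours, against 4.04, 2.57 and 2.81 in the soft tumours. A8 and A9 are at 0 on any such scale, so A7 is the only stiff tumour whose place these ratios could change. All-gene totals were lower on average in stiff tumours, at 10315, 9755 and 9000 protein-altering variants in A7, A8 and A9, against 9909, 11672 and 10672 in A1, A2 and A3.

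**Figure D2:**
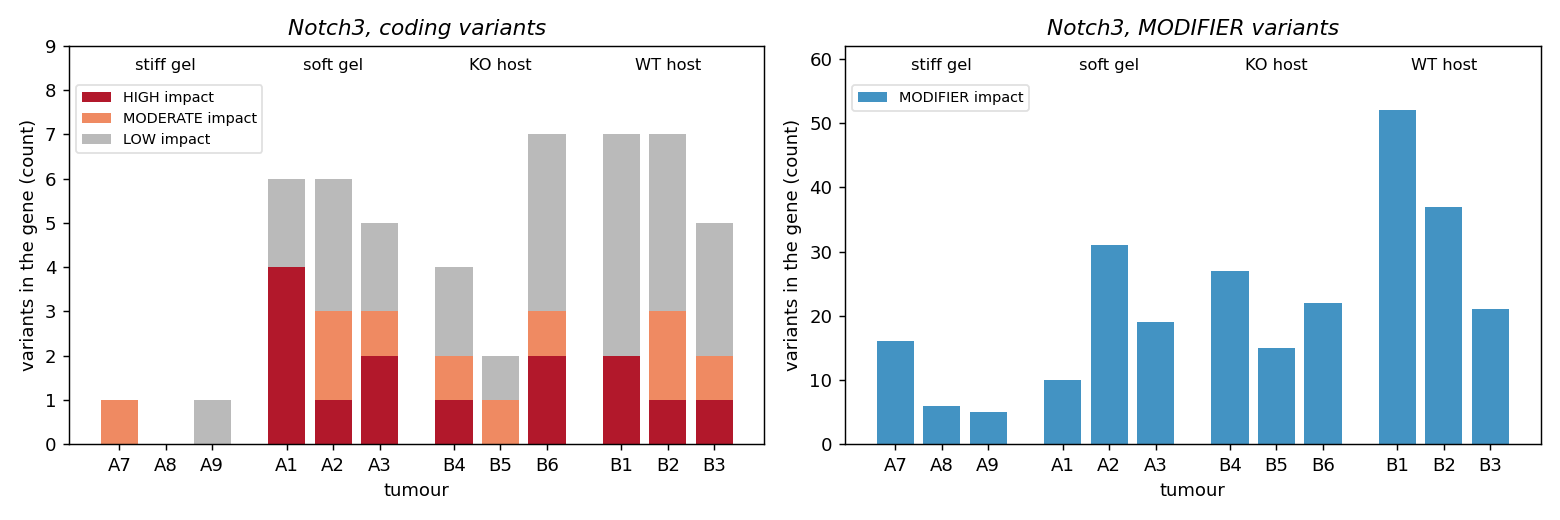
Number of Notch3 variants by predicted impact in each tumour, as stacked HIGH, MODERATE and LOW counts (left) and MODIFIER counts (right). The stiff-gel tumours had 1, 0 and 1 coding variants and the soft-gel tumours 6, 6 and 5, while their MODIFIER counts overlapped (16, 6 and 5 in stiff, 10, 31 and 19 in soft tumours).

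In the host experiment, which addresses lipid peroxidation in myeloid cells, Notch3 counts overlapped. It had 2, 1 and 3 protein-altering variants in the KO-host tumours B4, B5 and B6, against 2, 3 and 2 in the WT-host tumours B1, B2 and B3. Of the 5309 genes tested, 0.735% were wholly higher in KO hosts and 4.26% wholly lower. The mean was 2 ± 1 in KO and 2.33 ± 0.577 in WT hosts (SD, n = 3 each). edgeR gave a log2 fold change of -0.21 (unadjusted p = 0.781, adjusted p = 1). It called 0 of the 4 members it could test and 0% of all genes. At an unadjusted p under 0.05 it listed 0 members, against 0.49% of all genes higher and 3.26% lower, and DESeq2 called and listed 0 members. HIGH variants numbered 1, 0 and 2 in KO hosts, against 2, 1 and 1 in WT hosts, and MODIFIER variants 27, 15 and 22 in KO hosts, against 52, 37 and 21 in WT hosts. B3 of the WT hosts therefore had fewer MODIFIER variants than B4 and B6 of the KO hosts.

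By group mean, Notch3 was highest in soft-gel tumours, followed by WT-host, KO-host and stiff-gel tumours. The counts of each group in that order overlapped with those of the next: soft-gel and WT-host tumours shared the value 3, WT-host and KO-host tumours the values 2 and 3, and KO-host and stiff-gel tumours the value 1. The stiff-minus-soft effect was set against the KO-minus-WT effect in one edgeR fit of all 12 tumours. The difference of the 2 effects in Notch3 was -2.71 on the log2 scale (unadjusted p = 0.0375, adjusted p = 1). At that unadjusted threshold, 0.688% of 6830 genes had a difference of this sign and 1.29% one of the opposite sign.

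Of the 24 protein-altering variants of Notch3, 14 were rated HIGH, or 58.3%, while over all protein-coding genes the share was 27.2%, with 23.5% to 28.5% in single tumours. In single tumours the Notch3 share, of at most 4 variants, ran from 0% to 100%. The other 7 members together had 27.6%. No test was made of this share, because a variant carried by several tumours is counted in each. Frameshifts made up most of it, with 10 in 8 tumours, namely all tumours but A7, A8, A9 and B5. All 24 were counted on the transcript ENSMUST00000087723, while the other protein-coding transcript, ENSMUST00000235816, held 9.

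The other receptors showed few coding variants. Notch2, a receptor widely expressed in development, had 0, 0 and 1 protein-altering variants in A7, A8 and A9, against 1, 3 and 0 in A1, A2 and A3. A2 alone held 3 of these 5, as 2 missense changes and a frameshift, and the variant in A9 was a splice acceptor change. In the host experiment it had 0, 1 and 1 in B4, B5 and B6, against 0 in each WT-host tumour. The groups overlapped in both experiments. Notch1, a receptor that is mutated to an active form in T-cell leukaemia, had LOW variants only, 1 in A8 and 1 in B2. It was not without calls, since 1 to 8 MODIFIER variants were listed in every tumour.

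Among the ligands, Jag1, which is mutated in human Alagille syndrome, had a single protein-altering variant, a stop gained in the WT-host tumour B1. It had 0 to 3 MODIFIER variants per tumour and 8 in all. Jag2, the second Jagged ligand, had 1 protein-altering variant in 1 tumour of each group: a frameshift in A8 of the stiff gels, a missense change in A1 of the soft gels, a splice acceptor change in B4 of the KO hosts and a missense change in B2 of the WT hosts. Neither gene reached the minimum sum for the test within either experiment.

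Dll4, the Delta-like ligand of sprouting blood vessels, averaged 0.667 protein-altering variants in each of the 4 groups. It had 1, 0 and 1 in A7, A8 and A9, against 0, 1 and 1 in A1, A2 and A3, and 1, 0 and 1 in B4, B5 and B6, against 2, 0 and 0 in B1, B2 and B3. Missense changes were found in A7, A9, A2, A3, B4 and B1, a splice acceptor change in B1 and a stop gained in B6. Its MODIFIER counts overlapped in both experiments, with 20, 13 and 15 in stiff against 18, 25 and 17 in soft tumours, and 17, 22 and 23 in KO against 36, 33 and 21 in WT hosts.

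Dll1 and Dll3 had protein-altering variants in host tumours and 0 in the 6 gel tumours. Of the 6830 genes tested over all 12 tumours, 8.93% were likewise at 0 in every gel tumour and altered in at least 2 host tumours, and 3.4% showed the opposite. Dll1, a ligand of mammary basal cells, had 1, 0 and 1 in B4, B5 and B6, against 0, 2 and 2 in B1, B2 and B3. These were missense in B2, B3 and B6, a splice donor change in B3 and an in-frame deletion in B4. Dll3, a divergent ligand that acts within the cell, had missense changes alone, 0, 0 and 1 in KO hosts, against 0, 0 and 2 in WT hosts. The KO and WT groups overlapped for both genes. MODIFIER counts of Dll1 averaged 5.33 ± 4.72 in gel and 10.2 ± 3.71 in host tumours (SD, n = 6 each). Those of Dll3 averaged 4 ± 2.97 in gel and 6.17 ± 2.32 in host tumours. Of the 20757 genes tested on MODIFIER counts, 12460 had a lower and 7425 a higher mean in gel tumours. In A9 and A1, Dll1 had no variant of any class.

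All 6 gel tumours were also set against all 6 host tumours. The experiments differed in both gel and host, whose parts cannot be told apart, and the labels name a pair of sequencers without saying which tumour ran on which. Dll1 averaged 0 in gel and 1 ± 0.894 in host tumours (SD, n = 6 each), and the host values overlapped the gel values in B1 and B5, which had 0. The exact permutation p of Dll1 was 0.0606, and 1 after adjustment over all genes. edgeR gave Dll1 an unadjusted p of 0.0169 and an adjusted p of 0.438, and Dll3 an unadjusted p of 0.0844. With 0 in every gel tumour, both genes reached the minimum sum of 3 through host tumours alone. They could therefore only be tested as lower in gel tumours. No member was called by edgeR among the 6 it could test, nor was any of 6830 genes (0%), while 9.19% of all genes had an unadjusted p under 0.05 and were lower in gel tumours and 1.64% higher. By position of the counts, 0.205% were wholly lower in gel tumours. DESeq2 called 0 members and listed 0 at an unadjusted p under 0.05. Notch3 averaged 1.83 ± 1.72 in gel and 2.17 ± 0.753 in host tumours (SD, n = 6 each), with a log2 fold change of -0.23 (edgeR, unadjusted p = 0.715, adjusted p = 0.947). MODIFIER counts of Notch3 averaged 14.5 ± 9.77 in gel and 29 ± 13.5 in host tumours (exact permutation p = 0.0563, adjusted 0.334). On MODIFIER counts edgeR called 3.02% of genes between gel and host tumours and 0 of the 8 members.

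Summed over the 8 genes, protein-altering variants numbered 2, 1 and 2 in A7, A8 and A9, against 6, 7 and 4 in A1, A2 and A3. Every stiff tumour was below every soft tumour. Without Notch3 the sums were 1, 1 and 2 in stiff tumours, against 2, 4 and 1 in soft tumours, and the groups overlapped. In the host experiment the sums were 5, 2 and 7 in B4, B5 and B6, against 5, 6 and 6 in B1, B2 and B3, with overlap. The mean difference there was -1, and 0.333 without B5. No test was made on these sums, since the genes were chosen as a set.

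**Figure D3:**
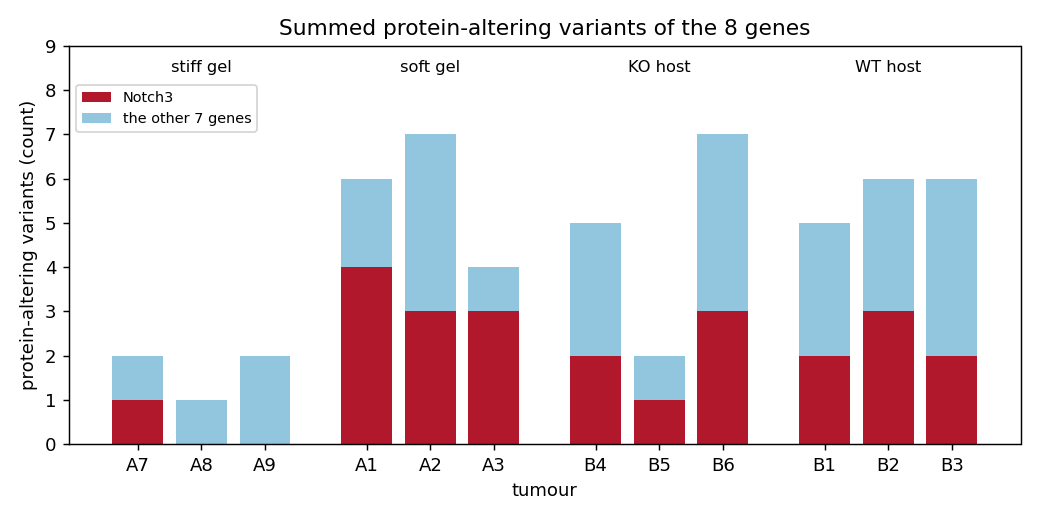
Protein-altering variants summed over the 8 genes in each tumour, split into Notch3 and the other 7 genes. The stiff-gel tumours had 2, 1 and 2 and the soft-gel tumours 6, 7 and 4, of which Notch3 gave 1, 0 and 0 in stiff and 4, 3 and 3 in soft tumours.

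The neighbours of each member in gene order were looked at next, 3 on each side. None of the 6 neighbours of Notch3 separated stiff from soft tumours. The nearest on either side, Rrp1b and Ephx3, had 0 and 1 protein-altering variants in the 12 tumours. Sik1, a salt-inducible kinase, had 0, 2 and 0 in stiff and 2, 0 and 0 in soft tumours, and Akap8, an anchoring protein, had 1, 1 and 0 in stiff and 0, 2 and 0 in soft tumours. Among the neighbours of Dll4, Ino80, a chromatin remodelling ATPase, had 9, 6 and 9 in stiff and 6, 9 and 7 in soft tumours. Spint1, a protease inhibitor, had 1, 2 and 0 in stiff and 3, 2 and 1 in soft tumours. None of the listed neighbours of any member had groups without overlap in the gel or the host comparison. Over all genes tested, 2.69% were wholly lower and 1.18% wholly higher in stiff tumours. In KO hosts 4.26% were wholly lower and 0.735% wholly higher.

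**Figure D4:**
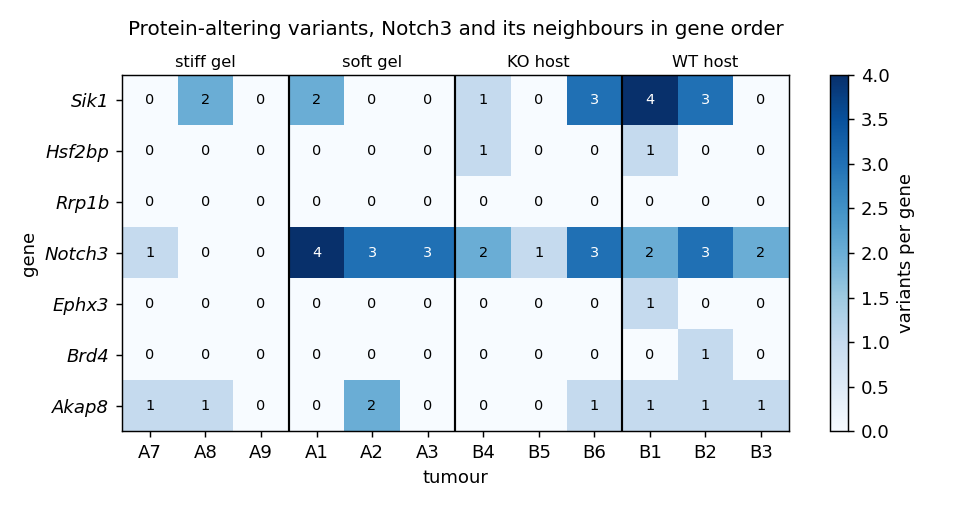
Protein-altering variants in Notch3 and the 3 protein-coding genes on each side of it, in gene order, in the 12 tumours. Of the 7 genes, Notch3 alone had every stiff-gel tumour (1, 0 and 0) below every soft-gel tumour (4, 3 and 3).

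The genes with the most similar pattern over the 12 tumours were found by the correlation of coding counts. For Notch3 they were Fam117b (Pearson r = 0.857), Herc2, a large ubiquitin ligase (r = 0.855), and Ppp1r10, a subunit of a phosphatase 1 complex (r = 0.854), out of 1884 genes with a comparable total. For Dll4 they were Sec61a2 (r = 0.829), Fras1 (r = 0.819) and Klhl33 (r = 0.81), out of 3515 genes. These are descriptions over 12 tumours of sparse counts that share the tumours' total burden, and the highest of many correlations.

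The rest of the pathway was described from a list of 56 other genes, Notch4 included, all of which were listed in at least 1 tumour. In the gel comparison 13 had a higher, 16 a lower and 27 an equal mean in stiff tumours. edgeR tested 18 and called 0, with 0 at an unadjusted p under 0.05, and DESeq2 called 0. No gene of the list separated stiff from soft tumours. Of all 4312 genes tested, 2.69% were wholly lower and 1.18% wholly higher in stiff tumours. With 18 genes of the list tested, finding none is close to those shares. The median difference was 0 for the tested genes of the list and 0 for all genes tested. Of all 4312 genes tested, 1519 had a higher, 2022 a lower and 771 an equal mean. In the host comparison 5 of the 56 had a higher, 23 a lower and 28 an equal mean in KO hosts, while of all 5309 genes tested 1417 had a higher, 3096 a lower and 796 an equal mean. edgeR tested 24 and called 0, with 1 lower at an unadjusted p under 0.05, against 3.26% of all genes, and DESeq2 called 0. The 1 gene was Cntn6, a contactin that can bind Notch. Cntn6 had 0, 1 and 2 in KO hosts, against 7, 8 and 2 in WT hosts, with B6 and B3 alike (edgeR log2 fold change -2.36, adjusted p = 1). The median difference was -0.333 both for the tested genes of the list and for all genes tested. Between gel and host tumours edgeR tested 29 and called 0, with 5 lower in gel tumours at an unadjusted p under 0.05, against 9.19% of all genes. They were Adam10, the protease that cuts the bound receptor, Furin, which cuts it during maturation, Rbpjl, a relative of Rbpj, Hey1, a target gene, and Fbxw7, a ubiquitin ligase subunit that marks the intracellular domain for degradation. Each had an adjusted p of 0.438 by edgeR. The gel counts of all 5 fell short of the minimum sum of 3, so they entered the test through host tumours, where they were higher. Rbpjl had 0 in every gel tumour and could only be tested as lower there. DESeq2 called 0 and listed Hey1 at an unadjusted p under 0.05.

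Of this list, 10 genes had protein-altering variants in at least 10 tumours. Spen, a corepressor that binds Rbpj, had 10, 13 and 5 in stiff and 9, 9 and 10 in soft tumours. It had 8, 8 and 14 in KO and 14, 27 and 15 in WT hosts, where B2 stood highest. Ncstn, the nicastrin subunit of gamma-secretase, had 11 in each stiff tumour and 9, 11 and 9 in soft tumours. Adam17, a protease that sheds membrane proteins, had 8, 11 and 7 in stiff and 11, 4 and 11 in soft tumours. The ubiquitin ligases Neurl1a, Itch, Mib2, Dtx3 and Neurl1b had 67, 27, 16, 14 and 11 over the 12 tumours. Neurl1a was at 5 or 6 in every tumour. Notch4 had 22, 23 and 21 in stiff and 24, 23 and 21 in soft tumours, and 23, 15 and 24 in KO and 31, 22 and 30 in WT hosts. Both comparisons overlapped for each of these 10 genes.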

How the data were processed

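Exome variants were tabulated for 12 tumours, 3 in each of 4 groups; 2 wild-type tail samples were not analysed here. The tools listed in the submitters' processing notes are GATK, SAMtools 1.19.2 and BWA 2.2.1, with the GRCm39 build. Caller settings, variant filters and whether normals were subtracted: not given in the sources used here. Each deposited table holds raw variant counts by transcript, written by snpEff per the file headers. An Agilent mouse kit captured the exons, per the labels' protocols, and libraries were sequenced as 150 bp pairs to a stated depth above 50x.

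A gene's count in an impact class was the maximum over its protein-coding transcripts, with unlisted transcripts as 0. Genes with a sum of at least 3 were tested on protein-altering counts with edgeR 4.0.16 (quasi-likelihood, equal library sizes, Benjamini-Hochberg adjustment over all genes tested, threshold 0.05). DESeq2 1.42.0 was the other tool tried. Single genes were also compared by two-sided exact permutation tests (20 assignments for 3 against 3, 924 for 6 against 6), adjusted over all genes tested. The test was tried on simulated data. Labels do not say more than that the tumours are separate samples, so p-values measure the spread between these samples. Gene names are those of the deposited tables, and neighbours follow the gene order of a GRCm38.p6 table. The members, lists and tests were chosen with earlier results of these data known, including the Notch3 difference between gels. Named besides the members were pathway genes altered in at least 10 tumours (at most 10), the 3 genes most correlated with a member of at least 10 coding variants, and neighbours; Cntn6 and the pathway genes listed between gel and host tumours were named after their values were seen. The values of 1 of these pathway genes are not reported here. HIGH-only and MODIFIER-only counts were added after the data were seen.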

Additional observations from a re-analysis of the deposited data

Results flagged for a closer look

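The sum of coding variants over the 8 genes was 3 in the KO-host tumour B5, against 10 to 14 in the other 5 host tumours, a gap to the nearest of them that is large for 6 values. Such a gap is met by chance in about 1 in 20 groups. Several groups were looked at: Notch3 and the sum of the 8 genes, by protein-altering, coding and MODIFIER counts, in each experiment. Only this value was flagged, and some flag among so many looks can be met by chance. B5 also held the fewest coding variants over all genes, 14434.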

How the results depend on the processing

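Notch3 stayed lower in stiff than in soft tumours, with an adjusted p of 0.522 or more, under the 16 alternatives that kept protein-altering or coding counts (log2 fold change -4.79 to -2.47); the lowest is the value without A7, which leaves the stiff group at 0 and depends on the prior count. It was -1.30 on MODERATE and -1.14 on MODIFIER variants alone. In its KO-minus-WT comparison the sign turned when scaled to total protein-altering counts (0.0996) and, with single tumours left out, the value ran from -0.60 to 0.0946. The gel-minus-host value turned when scaled to total protein-altering counts (0.0795) and ran from -0.59 to 0.0208 with single tumours left out. The cause was not tested. The sum of the 8 genes differed by -4.83 to -3.33 (stiff minus soft), -2.17 to 0.333 (KO minus WT, above 0 without B5) and -2.17 to -0.967 (gel minus host) with single tumours left out. Per 10000 protein-altering variants of the tumour, KO minus WT was -2.72% of the WT mean, against -17.6% unscaled. Gel minus host was then -11.8% of the host mean, against -29.0% unscaled, and stiff minus soft -67.2% of the soft mean. With MODIFIER variants the stiff-minus-soft sum was -18.3, or -27.1% of the soft mean, against -70.6% for protein-altering variants. The number of genes called between gel and host tumours was 0 in the edgeR fit, 2 when scaled to total counts, 11 with DESeq2 at equal size factors, 6 with its own, 626 on MODIFIER counts and 0 to 3 with single tumours left out (3 without A2). On MODIFIER counts 10 genes differed between the 2 effects. No member was among the genes called on protein-altering counts. No paired analysis was possible because stiff and soft, and KO and WT, share no sample numbers. Counts of 0 to 4 and an unknown depth limit what these tests can detect.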
